A study of Homo sapiens with 12 samples.

Results

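The genes described here are 50 genes of DNA replication licensing and of the replication fork, given as a list of symbols and found by an exact match of the symbol in the table of gene counts. Each of the 50 symbols matched 1 row, so the genes were 50 of the 58307 rows that name a gene. The counts came from polyA-enriched RNA of human melanoma cells, sequenced to follow how rapamycin changes the response to etoposide. A375 cells were sequenced after etoposide (A375 Etoposide) and after etoposide with rapamycin (A375 Etoposide + Rapamycin), and cells labelled SK-MEL-28 after the same treatments, with 3 libraries in each of the 4 groups. A375 and SK-MEL-28 are names of human melanoma cell lines. All 12 libraries therefore carry etoposide, which traps topoisomerase II on cut DNA, and the groups within a line differ in rapamycin, an inhibitor of the growth-controlling kinase complex mTORC1. Cells with no drug and cells with rapamycin alone were not analysed here, and the labels give no dose or time. The study describes the 3 libraries of a group as biological replicates, but neither it nor the labels tie each library to a separate culture, so p-values measure the spread between these libraries.

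A replication origin is licensed when the origin recognition complex, CDC6 and CDT1 load the MCM2-7 ring onto DNA in G1 phase, and geminin blocks a further round of loading once S phase has begun. The kinase CDC7 with DBF4 then lets CDC45 and the GINS complex join the ring to form the active helicase, and polymerase alpha with primase starts each new strand. Polymerases epsilon and delta extend the strands on the PCNA clamp, which the RFC complex loads, replication protein A covers the single-stranded DNA, and FEN1 and DNA ligase I finish the lagging strand. Many of these genes are known targets of E2F transcription factors, which are held inactive by the retinoblastoma protein until a cell commits to S phase.

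Because the 50 genes share a function and many moved together, their promoters were read for the letters that E2F factors are known to bind. The windows came from RefSeq (GRCh38.p14) and ran from 250 bases before to 50 bases after the start of transcription. Of the 50 genes, 43 had a window, and MCM4, MCM5, GINS4, POLD3, RPA2, RPA3 and DNA2 had none. The 4 words searched, on both strands, were TTCCCGC, the same word with CG in its middle (TTCGCGC), with GG in its middle (TTGGCGC) or with GC in its middle (TTGCCGC). They are called the E2F core here and can overlap each other. The core was found in 31 of the 43 genes (72.1%), against 4169 of all 27305 genes with a window (15.3%) and 23.5% of the 11786 genes with a window that were tested in A375. The 9 stretches that follow run from 70 bases before to 30 bases after the start, 5′ to 3′ on the strand of the gene, with the core in capitals. The first 6 are genes described at length below with a core close to the start, PCNA is a gene with a core and no called change, POLD1 is a gene that rose without a core, and ORC2 is a gene with neither.
MCM2, chr3:127598341-127598440, plus strand: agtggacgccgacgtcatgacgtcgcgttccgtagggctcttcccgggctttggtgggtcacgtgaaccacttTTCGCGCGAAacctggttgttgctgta
MCM3, chr6:52284713-52284812, minus strand: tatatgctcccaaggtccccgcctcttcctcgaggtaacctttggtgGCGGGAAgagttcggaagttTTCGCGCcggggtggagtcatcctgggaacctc
MCM7, chr7:100101368-100101467, minus strand: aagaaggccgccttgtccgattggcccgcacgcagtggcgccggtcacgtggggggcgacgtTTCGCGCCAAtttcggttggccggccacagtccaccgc
ORC1, chr1:52404394-52404493, minus strand: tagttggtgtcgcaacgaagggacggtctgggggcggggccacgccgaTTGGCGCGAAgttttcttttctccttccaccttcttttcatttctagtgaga
CDT1, chr16:88803719-88803818, plus strand: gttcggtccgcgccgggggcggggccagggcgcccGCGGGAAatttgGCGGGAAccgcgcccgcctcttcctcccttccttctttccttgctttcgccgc
RFC4, chr3:186806453-186806552, minus strand: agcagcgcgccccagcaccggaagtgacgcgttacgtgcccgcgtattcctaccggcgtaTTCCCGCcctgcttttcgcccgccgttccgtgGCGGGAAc
PCNA, chr20:5126593-5126692, minus strand: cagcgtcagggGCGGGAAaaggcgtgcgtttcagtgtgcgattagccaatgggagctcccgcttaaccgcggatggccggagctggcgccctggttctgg
POLD1, chr19:50384253-50384352, plus strand: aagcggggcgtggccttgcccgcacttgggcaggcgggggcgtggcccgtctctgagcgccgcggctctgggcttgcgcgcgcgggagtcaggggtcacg
ORC2, chr2:200963631-200963730, minus strand: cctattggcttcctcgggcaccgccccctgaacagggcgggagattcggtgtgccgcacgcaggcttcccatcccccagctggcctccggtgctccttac
In MCM2, MCM7 and ORC1 a pair of cores on opposite strands overlap in 1 block of capitals. MCM7, PCNA and POLD1 have more than 1 start in the table, and the window of the first is shown. The core was found in 19 of 26 genes that rose in A375 (73.1%) and in 12 of 17 that did not (70.6%). Of the 10 genes with a window that rose in both lines, 5 held it. CDC45, FEN1, MCM10, ORC6, POLD1, POLD2 and RNASEH2A rose in A375 with no core in the window, and ORC2, ORC4, ORC5, DBF4 and PRIM2 did not rise and had none. The CCAAT box (CCAAT, either strand) was found in 26 of the 43 genes (60.5%) against 39.7% of all genes and 42.9% of those tested in A375, and the cell-cycle homology element (TTTGAA, either strand) in 1 (2.33%), DBF4, against 18.2% and 14.1%. These are matches of letters, and binding was not measured.

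Library totals lay between 28189501 and 32499337 counts. Across 14207 genes, Pearson's r on the log scale was 0.988 to 0.991 between libraries of a group, 0.975 to 0.983 between treatments of a line and 0.954 to 0.964 between lines under the same treatment. The melanocyte lineage genes SOX10 and S100B were present in every library, at 166 to 579 and 56.8 to 106 CPM (counts scaled to library size with TMM factors). The pigment genes PMEL, MLANA, TYR, DCT and TYRP1 were at 0 to 2.99 CPM in all 12 libraries. SK-MEL-28 is known as a line with strong expression of pigment genes, so the libraries with that label lacked defining markers of it. Of 12713 genes with a mean of at least 100 counts, 556 (4.37%) differed by more than 2-fold between the lines. The label is kept below as "SK-MEL-28-labelled". The leukocyte markers CD3E, CD14 and PTPRC and the epithelial markers EPCAM, KRT5 and CDH1 were at 0 to 0.632 CPM. Other genes of these lists were expressed, with LYZ at 5.81 to 33.4 CPM, KRT8 at 48.3 to 111 CPM and KRT14 at 4.84 to 9.995 CPM. In these bulk libraries, fewer cells in S phase and less RNA per cell cannot be told apart.

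Levels of different genes can be compared only per length, as TPM (counts per base of exon, scaled to the same sum in each library). PCNA, the sliding clamp, had the highest mean over the 12 libraries, 346 TPM, with a range of 312 to 387. FEN1, the flap nuclease of the lagging strand, followed at 126 TPM and MCM7 at 67.1 TPM. Their ranges over the 4 groups pooled, 95.7 to 171 and 45.0 to 98.2, overlap at one end. Within each group the mean of FEN1 was the higher. The means were 111 and 50.3 TPM (A375 Etoposide), 166 and 96.7 (A375 Etoposide + Rapamycin), 101 and 47.7 (SK-MEL-28 Etoposide) and 127 and 73.9 (SK-MEL-28 Etoposide + Rapamycin). The single-stranded DNA binding subunits RPA2 and RPA1 stood at 58.4 and 41.7 TPM. Of the pairs of neighbours in this order, PCNA and FEN1, RPA2 and RPA1, and WDHD1 and POLE2 had pooled ranges that did not overlap. Those of every other pair overlapped, which does not show that the genes overlapped within a group. The 6 subunits of the MCM2-7 ring, which work in equal number, spanned 11.3 TPM for MCM5 to 67.1 TPM for MCM7. The origin recognition complex lay between 8.32 TPM for ORC4 and 17.3 TPM for ORC5. The lowest levels were those of POLA1 (4.03 TPM), the catalytic subunit of polymerase alpha, the nuclease DNA2 (3.89 TPM), WDHD1 (3.51 TPM) and POLE2 (1.36 TPM). TPM depends on the annotated exon length, so the order is a description.

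**Figure D1:**
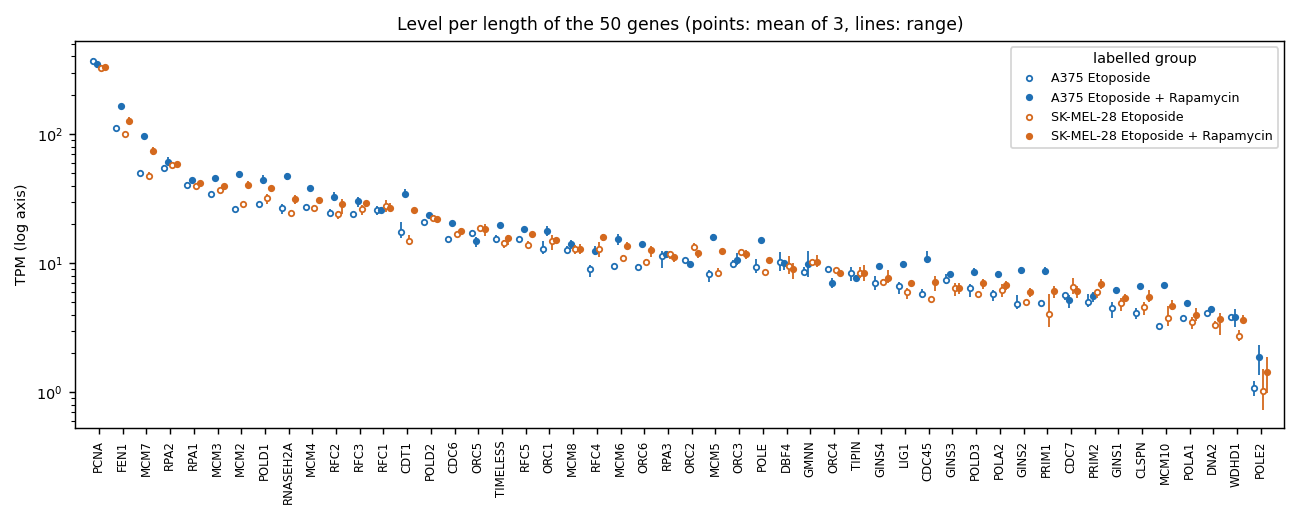
Level per length of the 50 genes on a log axis (TPM), in order of the mean over 12 libraries. Points are means of 3 libraries and lines their range, for the 4 labelled groups. PCNA lies highest (346 TPM) and POLE2 lowest (1.36 TPM), and the filled points of the rapamycin groups lie above the open points for the MCM2-7 genes, CDT1 and RNASEH2A.

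The main question was how the 50 genes differed when rapamycin was added to etoposide. In A375, 30 of the 50 were higher with rapamycin and 1, ORC4, was lower, at an adjusted p under 0.05 by the quasi-likelihood test of edgeR (Benjamini-Hochberg adjusted over 18844 genes). Among all genes tested, 14.3% were higher and 13.8% lower. With the SK-MEL-28 label 14 of the 50 were higher and 0 lower, against 8.83% higher and 10.1% lower among 18897 genes. At an unadjusted p under 0.05 the counts were 34 and 25 of 50 in either direction, against 38.8% and 31.6% of all genes. A higher count of reads makes a call easier, and among genes with a mean count in the range of these 50 (10th to 90th percentile) 17.5% were higher in A375 and 11.0% in the SK-MEL-28-labelled cells. With the fold change of 1.5 that the study also asked for, 12 genes were differentially expressed in A375 (3.09% of all genes were higher by this rule) and 3 in the SK-MEL-28-labelled cells (1.85%). These calls were all for higher levels. The median log2 fold change of the 50 genes was 0.39 in A375, where that of all genes was -0.0051, and 0.21 in the SK-MEL-28-labelled cells, where that of all genes was 0.0053.

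The rise was shared by genes from loading to strand completion. In A375 every rapamycin library lay above every etoposide library for 32 of the 50 genes, against 20.7% of all genes, and below for 3 (ORC2, ORC4 and ORC5), against 21.9%. Among the SK-MEL-28-labelled libraries this was so for 22 genes above, against 17.7% of all genes. The count below was 0, and with no share of all genes counted in this line, nothing is read from it. The genes that passed the test in both lines were MCM2, MCM4, MCM5, MCM6, MCM7, ORC6, CDT1, CDC45, POLD1, POLE, FEN1 and RNASEH2A, all higher. RFC5 and WDHD1 passed in the SK-MEL-28-labelled cells and not in A375, and 19 genes passed in A375 and not in the SK-MEL-28-labelled cells. ORC2, ORC3, ORC5, GMNN, CDC7, DBF4, GINS3, PRIM2, POLE2, PCNA, RFC1, RPA1, RPA2, RPA3, DNA2, TIPIN and MCM8 passed in neither.

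**Figure D2:**
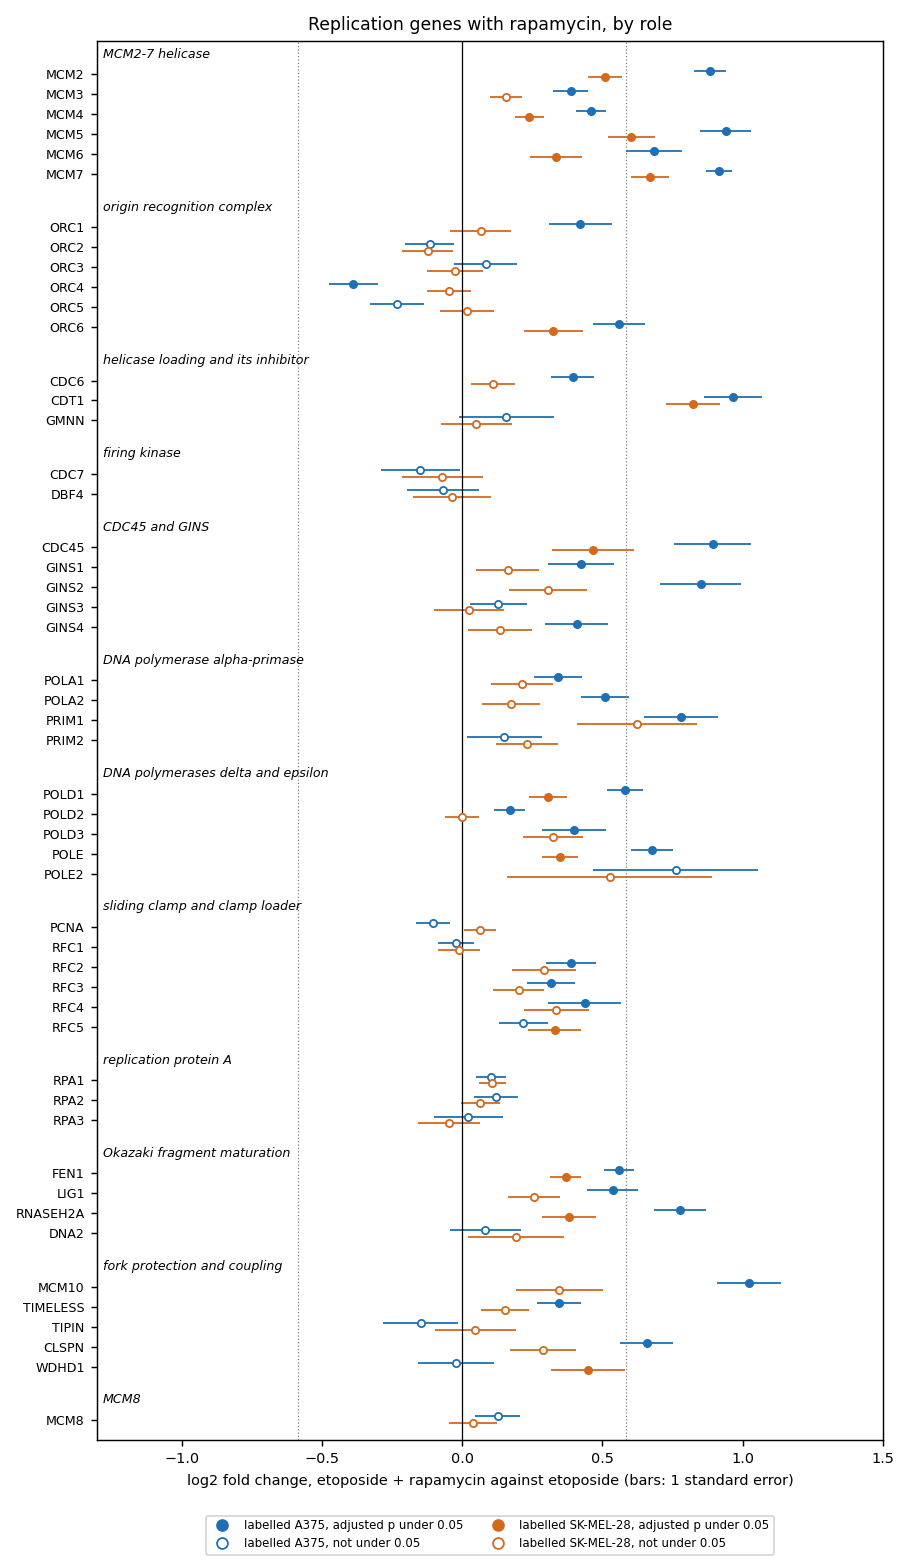
Log2 fold change of each of the 50 genes, etoposide + rapamycin against etoposide, by role, in A375 (blue) and the SK-MEL-28-labelled cells (orange), with bars of 1 standard error. Filled points have an adjusted p under 0.05, and the dotted lines mark a fold change of 1.5. The MCM2-7 subunits lie between 0.39 and 0.94 in A375, while RFC1, RPA3 and DBF4 lie near 0 in both. CDC7 lies at -0.15 in A375 and -0.07 in the SK-MEL-28-labelled cells, not called in either.

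The MCM2-7 ring, the core of the helicase, was the role group with every member higher in A375, and 5 of its 6 members were higher in the SK-MEL-28-labelled cells. MCM2 (ENSG00000073111.14, chromosome 3, 127598410 to 127622436, plus strand, GRCh38) stood at 35.7, 36.5 and 36.8 CPM in the A375 Etoposide libraries and 64.4, 70.3 and 65.7 CPM with rapamycin. In the SK-MEL-28-labelled cells it stood at 39.6, 41.5 and 41.3 CPM with etoposide and 55.4, 57 and 62 CPM with rapamycin. Every rapamycin library lay above every etoposide library of its line, and the A375 rapamycin libraries above all others. The log2 fold change was 0.88 (SE 0.0556, adjusted p = 5.6e-07) in A375 and 0.51 (SE 0.0601, adjusted p = 7.56e-05) in the SK-MEL-28-labelled cells. MCM7 (ENSG00000166508.19, chromosome 7, 100092233 to 100101940, minus strand), the ring subunit with the highest level per length, moved from 73.3, 74.7 and 72.1 CPM to 141, 136 and 137 CPM in A375. Its SK-MEL-28-labelled libraries held 69.7, 75.5 and 66.7 CPM and, with rapamycin, 103, 114 and 120.3 CPM. Neither line's groups overlapped, and the rise was 0.92 (SE 0.0448, adjusted p = 9.24e-08) and 0.67 (SE 0.0661, adjusted p = 1.79e-05) on the log2 scale, in this order of lines. The microRNA gene MIR106B lies within MCM7 and held 0.249% of its mean count.

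MCM5 (ENSG00000100297.16, chromosome 22, 35400134 to 35425431, plus strand), which sits beside MCM2 at the gate where DNA enters the ring, was the ring subunit with the largest fold change in A375. Its A375 libraries held 18, 15.7 and 19.1 CPM with etoposide and 31.5, 34.8 and 34.6 CPM with rapamycin. The SK-MEL-28-labelled libraries held 16.9, 18.1 and 19.8 CPM and 27.4, 28.2 and 28 CPM. The groups did not overlap, and the log2 fold changes were 0.94 (SE 0.090, adjusted p = 1.35e-05) in A375 and 0.60 (SE 0.0831, adjusted p = 0.000261) in the SK-MEL-28-labelled cells. MCM2 differs in this: its fold change in the SK-MEL-28-labelled cells, 1.42, was under 1.5, so MCM5, MCM7 and CDT1 were the 3 genes differentially expressed in both lines.

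MCM6 rose from 11.3, 11.2 and 12.1 CPM to 19, 19.9 and 16.5 CPM in A375, a log2 fold change of 0.68 (SE 0.10, adjusted p = 0.000327). Its SK-MEL-28-labelled libraries held 14.3, 13.5 and 12.9 CPM with etoposide and 18.2, 17.1 and 16.1 CPM with rapamycin, a log2 fold change of 0.34 (SE 0.0939, adjusted p = 0.0249). Both comparisons were without overlap. MCM4 carries a tail on which CDC7 acts. It stood at 73.8, 83 and 82.2 CPM and then 109.6, 107 and 110.4 CPM in A375, and at 80.5, 78.7 and 79.1 CPM and then 88.1, 98.3 and 95.7 CPM in the SK-MEL-28-labelled cells. These are smaller shifts, of 0.46 (SE 0.0532, adjusted p = 6.33e-05) and 0.24 (SE 0.0527, adjusted p = 0.00667) on the log2 scale, with no overlap. MCM3, the subunit that first touches ORC and CDC6, held 35.2, 38.9 and 36.5 CPM with etoposide and 49.8, 48.5 and 45.7 CPM with rapamycin in A375. Its levels were 39.5, 40.4 and 39.8 CPM and 43.2, 44.9 and 45.6 CPM in the SK-MEL-28-labelled cells. The groups did not overlap in either line, but the log2 fold change passed the test in A375 alone, at 0.39 (SE 0.0622, adjusted p = 0.000645), and was 0.16 (SE 0.0574, adjusted p = 0.076) in the SK-MEL-28-labelled cells. MCM8 is a relative of the ring subunits that serves homologous recombination and no part of the loaded ring. It held 29.8, 27.5 and 28.9 CPM and 32, 33.6 and 28.3 CPM in A375, and 31.6, 27.2 and 30.1 CPM and 27.6, 31 and 32.8 CPM in the SK-MEL-28-labelled cells, with overlap in both lines and log2 fold changes of 0.13 (adjusted p = 0.279) and 0.04 (adjusted p = 0.814).

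**Figure D3:**
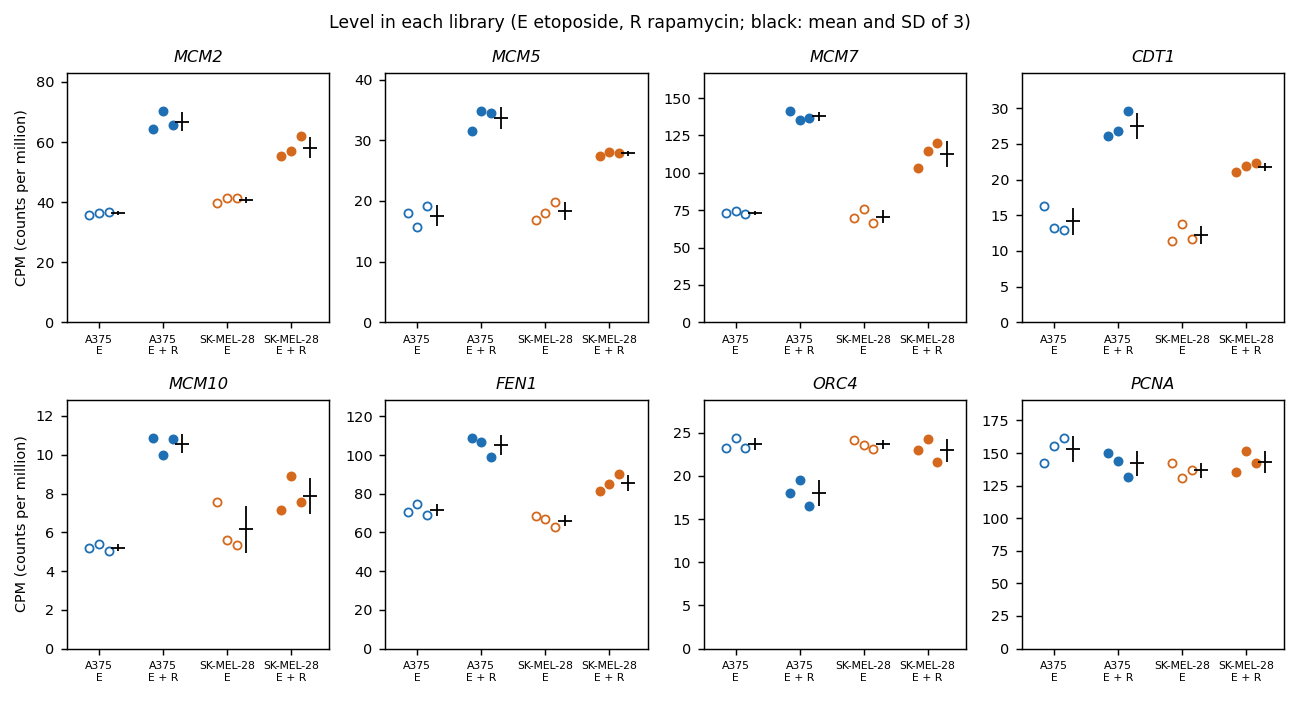
Level (CPM, axes from 0) of MCM2, MCM5, MCM7, CDT1, MCM10, FEN1, ORC4 and PCNA in each of the 12 libraries, by labelled line and treatment (E etoposide, R rapamycin), with the mean and SD of 3 in black. MCM2 lies at 35.7 to 36.8 CPM in the A375 Etoposide libraries and at 64.4 to 70.3 CPM with rapamycin, whereas PCNA overlaps between the treatments of both lines and ORC4 is low in the A375 rapamycin libraries.

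The origin recognition complex, the platform on which the ring is loaded, did not move as the ring did. In A375 its members ORC1 and ORC6 were higher, ORC4 was lower and ORC2, ORC3 and ORC5 passed in neither direction, with a median log2 fold change of -0.016 over the 6. ORC6, the subunit known to be bound least tightly, rose from 11.4, 12.7 and 11.7 CPM to 18.4, 17.5 and 16.8 CPM in A375 (log2 fold change 0.56, SE 0.0924, adjusted p = 0.000765). The SK-MEL-28-labelled libraries went from 13.1, 12.6 and 14 CPM to 14.6, 18.5 and 16.9 CPM (log2 fold change 0.33, SE 0.106, adjusted p = 0.0488), a call at the edge of the threshold that held in 1 of 6 fits with a library left out. ORC4 (ENSG00000115947.14, chromosome 2, 147930396 to 148021604, minus strand), a core subunit, was the exception among the 50. It fell from 23.2, 24.4 and 23.3 CPM to 18, 19.5 and 16.5 CPM in A375, with no overlap and a log2 fold change of -0.39 (SE 0.0879, adjusted p = 0.00571). Its SK-MEL-28-labelled libraries held 24.2, 23.6 and 23.2 CPM and 23, 24.3 and 21.6 CPM, which overlap, with a log2 fold change of -0.05 (SE 0.079, adjusted p = 0.746). ORC1, the subunit whose protein is known to come and go with the cell cycle, had log2 fold changes of 0.42 (SE 0.112, adjusted p = 0.0141) in A375 and 0.07 (SE 0.109, adjusted p = 0.737) in the SK-MEL-28-labelled cells. Leaving out A375 Etoposide + Rapamycin replicate 1 or A375 Etoposide replicate 2 or 3 took the adjusted p of ORC1 in A375 to 0.0631, 0.0532 and 0.0533.

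Among the loading factors CDT1 (ENSG00000167513.9, chromosome 16, 88803789 to 88809258, plus strand), which brings the ring to the origin, had the largest change of the 50 in the SK-MEL-28-labelled cells. It stood at 16.3, 13.2 and 13 CPM with etoposide and 26.2, 26.8 and 29.6 CPM with rapamycin in A375, and at 11.4, 13.7 and 11.7 CPM and 21.1, 21.9 and 22.3 CPM in the SK-MEL-28-labelled cells. All 6 rapamycin libraries lay above all 6 etoposide libraries. On the log2 scale the rise was 0.97 (SE 0.104, adjusted p = 3.59e-05) and 0.82 (SE 0.0965, adjusted p = 7.03e-05). CDC6, the loading ATPase, rose by 0.39 (SE 0.0753, adjusted p = 0.00198) on the log2 scale in A375, and its value in the SK-MEL-28-labelled cells was 0.11 (adjusted p = 0.366). GMNN, which encodes geminin, the inhibitor of CDT1, had log2 fold changes of 0.16 (adjusted p = 0.543) and 0.05 (adjusted p = 0.828), with overlapping groups in both. The level of CDT1 thus differed between treatments where no difference in that of its inhibitor was called.

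The kinase that fires origins was not called in either line. CDC7, its catalytic subunit, held 6.0, 6.32 and 5.62 CPM with etoposide and 4.69, 5.59 and 5.84 CPM with rapamycin in A375. With the SK-MEL-28 label these levels were 8.31, 6.25 and 6.71 CPM and 7.2, 7.22 and 5.88 CPM. The groups overlapped, and the log2 fold changes were -0.15 (SE 0.142, adjusted p = 0.484) and -0.07 (SE 0.145, adjusted p = 0.79). DBF4, its activating subunit, had log2 fold changes of -0.07 (adjusted p = 0.739) and -0.04 (adjusted p = 0.889), again with overlap.

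CDC45 and the 4 GINS subunits turn the loaded ring into an active helicase. In A375 CDC45, GINS1, GINS2 and GINS4 were higher, and in the SK-MEL-28-labelled cells CDC45 was. CDC45 stood at 4.56, 4.88 and 5.66 CPM and, with rapamycin, 8.82, 10.5 and 8.56 CPM in A375. The SK-MEL-28-labelled libraries held 4.74, 4.83 and 4.53 CPM and 5.46, 6.93 and 7.15 CPM. No groups overlapped, and the log2 fold changes were 0.89 (SE 0.138, adjusted p = 0.000485) and 0.47 (SE 0.145, adjusted p = 0.0396). The call in the SK-MEL-28-labelled cells held in 1 of 6 fits with a library left out, the adjusted p being 0.0805 to 0.15 in the other five. GINS2 had log2 fold changes of 0.85 (SE 0.146, adjusted p = 0.000981) and 0.31 (SE 0.139, adjusted p = 0.152). GINS1 and GINS4 rose by 0.42 and 0.41 in A375, and GINS3 had log2 fold changes of 0.13 (adjusted p = 0.393) and 0.02 (adjusted p = 0.921). Leaving out A375 Etoposide + Rapamycin replicate 2 or A375 Etoposide replicate 3 took the adjusted p of GINS1 to 0.0628 and 0.0732.

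Polymerase alpha-primase lays down the primer of each new strand. In A375 POLA1, POLA2 and PRIM1 were higher and PRIM2 was not called, and in the SK-MEL-28-labelled cells 0 of the 4 passed. PRIM1, the catalytic primase subunit, held 4.46, 5.19 and 4.81 CPM with etoposide and 7.77, 8.92 and 8.05 CPM with rapamycin in A375. Libraries of the other line held 3.2, 5.69 and 3.19 CPM and 5.39, 7.0 and 6.24 CPM, where the second etoposide library reached into the rapamycin range. Its log2 fold changes were 0.78 (SE 0.13, adjusted p = 0.000836) and 0.62 (SE 0.214, adjusted p = 0.0607). Without SK-MEL-28 Etoposide replicate 2 the latter was 0.95, with an adjusted p of 0.00479. It was also called there in 1 fit of all 12 libraries (log2 fold change 0.63, adjusted p = 0.029) and with the replicate number as a block (log2 fold change 0.66, adjusted p = 0.0217). PRIM1 shares its locus with NACA, which had a mean of 16509 counts against 173 for PRIM1, so its values are uncertain. POLA1 and POLA2 had log2 fold changes of 0.34 (adjusted p = 0.010) and 0.51 (adjusted p = 0.000916) in A375.

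The catalytic subunits of the strand-extending polymerases rose in both lines. POLE, which copies the leading strand, had log2 fold changes of 0.68 (SE 0.0744, adjusted p = 4.09e-05) in A375 and 0.35 (SE 0.0653, adjusted p = 0.00246) in the SK-MEL-28-labelled cells, and POLD1, which copies the lagging strand, 0.58 (SE 0.0648, adjusted p = 4.56e-05) and 0.31 (SE 0.0666, adjusted p = 0.00633). Groups did not overlap in these 4 comparisons. POLD2 and POLD3, accessory subunits of polymerase delta, were higher in A375 (log2 fold changes 0.17, adjusted p = 0.0416; 0.40, adjusted p = 0.0203). With 1 library left out the call of POLD2 was lost in 5 of 6 fits, with the adjusted p at 0.0665 to 0.146 in those, as it was with DESeq2, library totals and the block (0.0592, 0.117 and 0.0888), and that of POLD3 without A375 Etoposide + Rapamycin replicate 1 (0.0775) or A375 Etoposide replicate 3 (0.0885). A second gene name at the POLD3 locus held 23.2% of its mean count. POLE2, the second subunit of polymerase epsilon, was the gene with the fewest counts, 35.2 on average. It held 1.02, 0.825 and 0.983 CPM with etoposide and 2.0, 1.65 and 1.14 CPM with rapamycin in A375, and 0.752, 1.32 and 0.638 CPM and 0.872, 1.75 and 1.3 CPM in the SK-MEL-28-labelled cells. The A375 groups did not overlap, but at this depth neither log2 fold change passed, at 0.76 (SE 0.294, adjusted p = 0.0728) and 0.53 (SE 0.365, adjusted p = 0.36). Without A375 Etoposide + Rapamycin replicate 3 the adjusted p in A375 was 0.0442, with a log2 fold change of 0.95.

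PCNA, the clamp on which the polymerases run, was not called in either line. It stood at 142, 156 and 162 CPM with etoposide and 150.3, 144 and 132 CPM with rapamycin in A375. The SK-MEL-28-labelled libraries held 142, 131 and 137 CPM and 136, 152 and 142 CPM. The treatments overlapped in both lines, and the log2 fold changes were -0.10 (adjusted p = 0.225) and 0.06 (adjusted p = 0.492), with 95% intervals of -0.22 to 0.01 and -0.05 to 0.17. Both intervals lie below the fold changes of MCM2, MCM5, MCM7 and CDT1. PCNA is also known as a p53 target and a DNA repair gene. The clamp loader subunits RFC2, RFC3 and RFC4 rose in A375 and RFC5 in the SK-MEL-28-labelled cells, while RFC1, the large subunit, had log2 fold changes of -0.02 (adjusted p = 0.839) and -0.01 (adjusted p = 0.945). RFC4 held 6.62, 8.42 and 8.75 CPM and 11.8, 10.4 and 9.87 CPM in A375, and 11.8, 13.1 and 9.93 CPM and 13.4, 15.3 and 15.4 CPM in the SK-MEL-28-labelled cells. Neither line's groups overlapped, and the log2 fold changes were 0.44 (SE 0.132, adjusted p = 0.0259) and 0.34 (SE 0.117, adjusted p = 0.0628). Without A375 Etoposide + Rapamycin replicate 1 or 2, or A375 Etoposide replicate 1, the adjusted p of RFC4 in A375 was 0.105, 0.0532 and 0.0806 (0.0526 with the block), and without SK-MEL-28 Etoposide replicate 2 that in the SK-MEL-28-labelled cells was 0.0440. RFC3 in A375 likewise had an adjusted p of 0.0593 without A375 Etoposide + Rapamycin replicate 1 and 0.0713 without replicate 2.

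Replication protein A was called in neither line. RPA1, its large subunit, held 63.1, 63.7 and 70.1 CPM with etoposide and 72.2, 69.8 and 68.5 CPM with rapamycin in A375, and 66, 65.7 and 64.6 CPM and 71.1, 69.1 and 71.7 CPM in the SK-MEL-28-labelled cells. Only the second pair of groups was without overlap, and the log2 fold changes were 0.10 (SE 0.0543, adjusted p = 0.187) and 0.11 (SE 0.0474, adjusted p = 0.14). RPA2, the subunit that is phosphorylated at stalled forks, held 30.3, 33.9 and 32.2 CPM and 33.8, 38 and 32.6 CPM in A375. Its SK-MEL-28-labelled libraries held 32.5, 35 and 35.6 CPM and 34.1, 37.4 and 36.6 CPM. The groups overlapped and the 95% intervals of the log2 fold change were -0.03 to 0.27 and -0.07 to 0.20. RPA3 had log2 fold changes of 0.02 (adjusted p = 0.916) and -0.05 (adjusted p = 0.816).

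Of the enzymes that finish Okazaki fragments, RNASEH2A, FEN1 and LIG1 rose in A375 and RNASEH2A and FEN1 in the SK-MEL-28-labelled cells, and DNA2 was called in neither. RNASEH2A, the catalytic subunit of the nuclease that removes RNA from DNA, held 16.6, 17.6 and 14.7 CPM with etoposide and 26.5, 27.4 and 29.6 CPM with rapamycin in A375. Its SK-MEL-28-labelled libraries held 14.9, 15.9 and 14.4 CPM and 18, 21.8 and 19.4 CPM. No groups overlapped, with log2 fold changes of 0.78 (SE 0.0923, adjusted p = 7.51e-05) and 0.38 (SE 0.0965, adjusted p = 0.0147). The call in the SK-MEL-28-labelled cells was lost without SK-MEL-28 Etoposide + Rapamycin replicate 2 (adjusted p = 0.0692) or SK-MEL-28 Etoposide replicate 3 (adjusted p = 0.0710). FEN1 had log2 fold changes of 0.56 (SE 0.0534, adjusted p = 1.35e-05) and 0.37 (SE 0.0549, adjusted p = 0.000482), also with no overlap. FADS2, a name that shares the FEN1 locus, held 29.9% of the mean count of FEN1. LIG1, which encodes DNA ligase I, had log2 fold changes of 0.54 (adjusted p = 0.000916) and 0.26 (adjusted p = 0.074), and DNA2 of 0.08 (adjusted p = 0.679) and 0.19 (adjusted p = 0.49).

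Among the factors that couple and guard the fork, MCM10 had the largest change of all 50 genes in A375. MCM10 (ENSG00000065328.17, chromosome 10, 13161558 to 13211110, plus strand), which is needed for the helicase to start, held 5.21, 5.4 and 5.02 CPM with etoposide and 10.9, 10.00 and 10.8 CPM with rapamycin in A375. The SK-MEL-28-labelled libraries held 7.55, 5.59 and 5.35 CPM and 7.13, 8.9 and 7.54 CPM, and the first etoposide library lay within the rapamycin range. Log2 fold changes were 1.02 (SE 0.115, adjusted p = 4.68e-05) and 0.35 (SE 0.155, adjusted p = 0.144), and without SK-MEL-28 Etoposide replicate 1 the latter was 0.52, with an adjusted p of 0.0400. CLSPN (claspin) and TIMELESS, which tie the fork to the checkpoint kinase CHK1, rose in A375 (log2 fold changes 0.66, SE 0.0945, adjusted p = 0.000287; 0.35, SE 0.0781, adjusted p = 0.0056). In the SK-MEL-28-labelled cells their log2 fold changes were 0.29 (adjusted p = 0.106) and 0.15 (adjusted p = 0.252). TIPIN, the partner of TIMELESS, had log2 fold changes of -0.15 (adjusted p = 0.454) and 0.05 (adjusted p = 0.863). WDHD1, which links polymerase alpha to the helicase, was different. It held 7.28, 7.11 and 7.06 CPM and 5.95, 8.01 and 7.08 CPM in A375, which overlap, and 5.79, 5.16 and 4.8 CPM and 7.68, 7.07 and 6.79 CPM in the SK-MEL-28-labelled cells, which do not. The log2 fold changes were -0.02 (SE 0.135, adjusted p = 0.926) and 0.45 (SE 0.132, adjusted p = 0.0308).

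Several calls in the SK-MEL-28-labelled cells were lost when 1 library was left out. The number of genes that were higher there, 14, was 8 without SK-MEL-28 Etoposide replicate 3 and 9 without SK-MEL-28 Etoposide + Rapamycin replicate 2. With 1 library left out, the adjusted p of MCM6 was 0.0629 to 0.104 in the 4 fits that lost its call (without either of the first 2 rapamycin or the last 2 etoposide libraries). That of WDHD1 was 0.0565 to 0.111 in the 5 fits other than the one without SK-MEL-28 Etoposide replicate 1. That of RFC5 was 0.0824 to 0.108 in 4 fits (without rapamycin replicate 2 or 3, or etoposide replicate 1 or 3), and that of ORC6 was 0.0806 to 0.181 in the 5 fits other than the one without SK-MEL-28 Etoposide + Rapamycin replicate 1, which was also the fit in which CDC45 held. The calls of CDC45 and ORC6 there were also lost with DESeq2 (adjusted p = 0.0655 and 0.0504), with library totals (0.0533 and 0.0733), with the replicate number as a block (0.0587 and 0.0673) and when every gene with 1 count or more was tested (0.0958 and 0.104), and that of WDHD1 with DESeq2 (0.0534) and when every such gene was tested (0.0735). In A375 the number of higher genes stayed between 25 and 30 with each library left out. Testing every gene with 1 count or more lost the A375 calls of GINS1 and GINS4 (adjusted p = 0.0527 and 0.0502). Those of POLD2, POLD3 and RFC4 were lost in that fit as well (0.0964, 0.0573 and 0.0791).

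Whether the response differed between the lines was tested in 1 fit of all 12 libraries, as the log2 fold change in the SK-MEL-28-labelled cells minus that in A375. The log2 fold change was larger in A375 for 38 of the 50 genes. One gene, MCM2, passed the test of the difference (5.62% of 20101 genes did, 2.97% with a negative difference). With DESeq2 in place of edgeR 6 of the 50 passed with a negative difference (MCM2, MCM4, MCM7, POLE, RNASEH2A and MCM10), where 7.63% of the 13508 genes it tested did. For MCM2 the difference was -0.37 (SE 0.0791, adjusted p = 0.0118), and it lay between -0.41 and -0.33 with each library left out, with an adjusted p under 0.05 in each fit. At an unadjusted p under 0.05 the count was 19 of 50, against 20.4% of all genes, among them the 6 subunits of the ring, whose differences ran from -0.37 to -0.21. The largest difference was that of MCM10, -0.67 (SE 0.193, adjusted p = 0.0529). For MCM5, MCM7 and CDT1, differentially expressed in both lines, the differences were -0.33 (adjusted p = 0.122), -0.24 (adjusted p = 0.108) and -0.13 (adjusted p = 0.662). WDHD1 and ORC4 had positive differences, 0.48 (SE 0.181, adjusted p = 0.137) and 0.35 (SE 0.11, adjusted p = 0.074), and neither passed. The median difference of the 50 genes was -0.14, that of all genes tested 0.018. The 19 genes called in A375 alone did not pass the test of the difference by edgeR, so their calls in A375 are not shown differences between the lines. With DESeq2, where negative differences were read, MCM10 passed. That reading did not cover positive differences, such as that of ORC4.

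Under etoposide without rapamycin, few of the 50 genes differed between the lines. MCM2, ORC2, ORC3 and RFC4 were higher in the SK-MEL-28-labelled cells and WDHD1 and PCNA lower, 4 and 2 of 50, where 15.1% and 16.7% of all 20101 genes were. None of the 50 passed with a fold change over 1.5, which 12.5% of all genes did, and 11 of 50 had an unadjusted p under 0.05 by edgeR, against 40.5% of all genes. RFC4 differed most, by 0.55 (SE 0.129, adjusted p = 0.00329) on the log2 scale, followed by WDHD1 with -0.45 (SE 0.129, adjusted p = 0.0131), ORC2 with 0.36 (SE 0.0863, adjusted p = 0.00351), ORC3 with 0.34 (SE 0.104, adjusted p = 0.0195), MCM2 with 0.17 (SE 0.0568, adjusted p = 0.0326) and PCNA with -0.16 (SE 0.0612, adjusted p = 0.0497). The etoposide groups of the lines did not overlap for any of these genes, PCNA by the smallest margin, with 142.4 CPM in the lowest A375 library against 142.1 CPM in the highest SK-MEL-28-labelled one. MCM2 and ORC3 lost the call in 5 and 4 of the fits with a library left out (adjusted p of 0.0509 to 0.0952 without any A375 etoposide library or SK-MEL-28 etoposide replicate 2 or 3, and of 0.0505 to 0.0665 without A375 etoposide replicate 1 or 2 or SK-MEL-28 etoposide replicate 1 or 2). PCNA lost it in 7 such fits, with an adjusted p of 0.0513 to 0.213 (without A375 Etoposide + Rapamycin replicate 1 or 2, A375 Etoposide replicate 2 or 3, SK-MEL-28 Etoposide + Rapamycin replicate 3 or SK-MEL-28 Etoposide replicate 2 or 3), and WDHD1 without SK-MEL-28 Etoposide replicate 3 (0.0615). Fitting the etoposide libraries alone also lost the call of MCM2 (adjusted p = 0.0578). So did testing every gene with 1 count or more (0.0615). The label and all else that differed between the cultures cannot be told apart here.

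Other genes of the same pathway were read from lists of related function, outside the 50. Beside the counts of calls in these lists, 14.3% of all genes tested were higher and 13.8% lower in A375. In the SK-MEL-28-labelled cells 8.83% were higher and 10.1% lower. Among 10 other genes of licensing and firing, TICRR, RECQL4 and DBF4B rose in A375, and in the SK-MEL-28-labelled cells MCMBP and RECQL4 rose and LRWD1 fell. The medians of the 10 were 0.13 and 0.14 on the log2 scale. RECQL4, a helicase needed for firing, had log2 fold changes of 0.56 (SE 0.0583, adjusted p = 2.66e-05) and 0.31 (SE 0.067, adjusted p = 0.00595). The most abundant of the 10 were LRWD1, which binds the origin recognition complex, MCMBP, which binds the MCM ring, and KAT7, a histone acetyltransferase of origins. LRWD1 had log2 fold changes of 0.11 (adjusted p = 0.294) and -0.20 (adjusted p = 0.0429), MCMBP of 0.12 (adjusted p = 0.17) and 0.22 (adjusted p = 0.0374), and KAT7 of -0.08 (adjusted p = 0.285) and 0.01 (adjusted p = 0.909). Of 12 other fork genes, 4 rose in A375 and 1 in the SK-MEL-28-labelled cells, the latter near the 8.83% of all genes. That 1 was CHTF18, of the alternative clamp loader, which held 12.4, 13.1 and 14.1 CPM with etoposide and 26.9, 26.5 and 30.1 CPM with rapamycin in A375, a log2 fold change of 1.08 (SE 0.091, adjusted p = 4.87e-06). Among the SK-MEL-28-labelled libraries it went from 10.6, 12.4 and 11.8 CPM to 14.8, 17 and 16.2 CPM, by 0.46 (SE 0.102, adjusted p = 0.0075). SSRP1, of the histone chaperone FACT, had log2 fold changes of 0.29 (adjusted p = 0.000287) and 0.15 (adjusted p = 0.0926), and its partner SUPT16H of -0.07 (adjusted p = 0.275) and 0.00 (adjusted p = 0.998).

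Of 7 genes that copy chromatin behind the fork, 5 rose and 1 fell in A375, and 2 rose in the SK-MEL-28-labelled cells. Of all genes tested, 14.3% rose and 13.8% fell in A375, and 8.83% rose and 10.1% fell in the SK-MEL-28-labelled cells. UHRF1, which brings DNA methyltransferase to new DNA, rose in both, by 0.85 (SE 0.0541, adjusted p = 5.78e-07) and 0.42 (SE 0.0684, adjusted p = 0.000921) on the log2 scale. DNMT1, that methyltransferase, had log2 fold changes of 0.38 (adjusted p = 0.000687) and 0.02 (adjusted p = 0.859). Histone chaperones of the ASF1 family parted in A375, where ASF1B rose (log2 fold change 1.01, SE 0.0887, adjusted p = 6.92e-06) and ASF1A fell (log2 fold change -0.33, SE 0.0859, adjusted p = 0.0117). The genes that supply deoxynucleotides rose in 5 of 8 cases in A375 and 3 of 8 in the SK-MEL-28-labelled cells. RRM2, the regulated subunit of ribonucleotide reductase, rose in both (log2 fold changes 0.67, SE 0.0588, adjusted p = 7.2e-06; 0.32, SE 0.069, adjusted p = 0.00599), as did TYMS, thymidylate synthase (log2 fold changes 0.41, SE 0.0574, adjusted p = 0.00024; 0.53, SE 0.0787, adjusted p = 0.000479). TK1, thymidine kinase, rose in A375 (log2 fold change 1.09, SE 0.103, adjusted p = 1.22e-05), with a log2 fold change of 0.18 (adjusted p = 0.31) in the SK-MEL-28-labelled cells. Of 10 replication checkpoint genes 3 rose (RAD9A, WEE1 and CDC25A) and 1 fell (RAD17) in A375, and WEE1 rose in the SK-MEL-28-labelled cells. The fall of 1 gene in A375 and the rise of 1 in the SK-MEL-28-labelled cells were near the shares of all genes, 13.8% and 8.83%. CHEK1 and ATR, the central kinases of that checkpoint, had log2 fold changes of -0.02 (adjusted p = 0.917) and -0.07 (adjusted p = 0.392) in A375. In the SK-MEL-28-labelled cells these were -0.17 (adjusted p = 0.152) and 0.06 (adjusted p = 0.499). There every rapamycin library of CHEK1 lay below every etoposide library, and those of ATR overlapped.

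The markers of G2 and M phase differed between the lines. Of 16 such genes, 10 rose and 0 fell in A375, and in the SK-MEL-28-labelled cells 1 rose (KIF11) and 4 fell (CCNB1, AURKA, BUB1 and KIF20A). The shares of all genes were 14.3% higher and 13.8% lower in A375, and 8.83% and 10.1% in the SK-MEL-28-labelled cells. The summed level of the 16 went from 239 to 251 CPM in the A375 Etoposide libraries to 357 to 365 CPM with rapamycin. The SK-MEL-28-labelled libraries held 296 to 320 CPM in sum with etoposide and 275 to 303 CPM with rapamycin, which overlap. MKI67, the proliferation marker Ki-67, held 38.3, 38.1 and 34.6 CPM and 73.1, 78.4 and 82.5 CPM in A375, a log2 fold change of 1.08 (SE 0.0632, adjusted p = 3.48e-07). Its SK-MEL-28-labelled libraries held 43, 40.3 and 37.3 CPM and 38.7, 40.5 and 42.8 CPM, which overlap (log2 fold change 0.01, adjusted p = 0.917). The difference of its response between the lines was -1.06 (SE 0.0948, adjusted p = 7.89e-06), and 8 of the 16 passed that test, each with a smaller response in the SK-MEL-28-labelled cells. Of all genes tested, 2.97% passed it with a negative difference. The part of a shift in cell cycle phase in the change of the 50 genes was not tested. The summed level of the 50 genes themselves was 1197 to 1243 CPM in A375 with etoposide and 1534 to 1586 CPM with rapamycin, and 1209 to 1254 CPM and 1384 to 1484 CPM in the SK-MEL-28-labelled cells. Among the SK-MEL-28-labelled libraries the sums of the 50 genes did not overlap between treatments, whereas those of the G2 and M phase markers did. Sums weigh abundant genes most. As a mean log2 level, less the etoposide mean of the line, the 16 markers did separate there. They lay at -0.033 to 0.060 with etoposide and lower, at -0.18 to -0.052, with rapamycin.

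**Figure D4:**
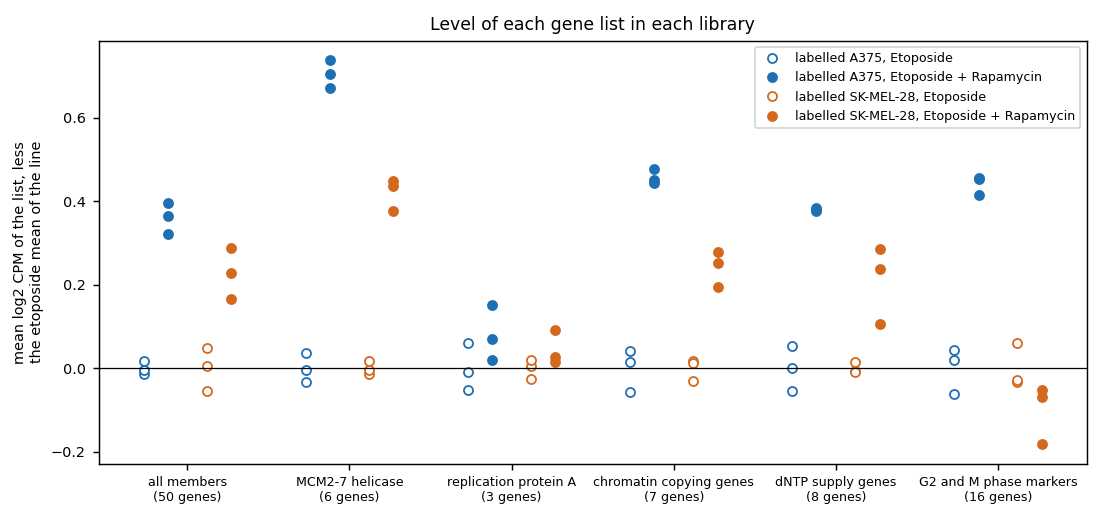
Mean log2 CPM of each gene list in each library, less the etoposide mean of the same line, for the 50 genes, their MCM2-7 and replication protein A groups and 3 other lists. Open points are etoposide and filled points etoposide + rapamycin, in A375 (blue) and the SK-MEL-28-labelled cells (orange). The MCM2-7 points with rapamycin lie at 0.67 to 0.74 in A375 and 0.38 to 0.45 in the SK-MEL-28-labelled cells, while those of the G2 and M phase markers lie at 0.42 to 0.46 and -0.18 to -0.052.

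Markers of other cell types moved with rapamycin in places. Of all genes tested, 13.8% were lower in A375 and 10.1% in the SK-MEL-28-labelled cells. Among the leukocyte markers, LYZ (lysozyme) fell in both lines (log2 fold changes -1.32, SE 0.111, adjusted p = 4.93e-06; -0.85, SE 0.102, adjusted p = 7.91e-05). LYZ held 16.5, 16.9 and 16.9 CPM with etoposide and 7.14, 7.2 and 5.81 CPM with rapamycin in A375, and 33.4, 30.5 and 32 CPM and 14.8, 19.4 and 19 CPM with the SK-MEL-28 label, without overlap in either line. PTPRC, CD3E and CD14 were at 0 to 0.632 CPM, so these defining leukocyte markers were at or near 0. Of 4 endothelial markers KDR fell in A375 and PECAM1 in the SK-MEL-28-labelled cells, the list summing to 84.7 to 96.1 and 62.1 to 64.6 CPM in A375 and to 65.9 to 69.97 and 68.2 to 73.4 CPM in the SK-MEL-28-labelled cells. CDH5 was at 0 to 0.851 CPM. The 5 epithelial markers summed to 58.9 to 59.7 CPM with etoposide and 61.9 to 64.9 CPM with rapamycin in A375, and to 111 to 118 and 95.6 to 99.6 CPM in the SK-MEL-28-labelled cells. Of these the keratin KRT8 fell in the SK-MEL-28-labelled cells (log2 fold change -0.21, adjusted p = 0.0106), and in A375 it had 0.14 (adjusted p = 0.0675). Of 8 melanocyte lineage markers MITF, DCT and S100B fell in A375 and MITF in the SK-MEL-28-labelled cells. MITF, a factor of that lineage, was at 12.1 to 29.7 CPM over the 12 libraries and had log2 fold changes of -0.51 (adjusted p = 0.00248) and -0.50 (adjusted p = 0.0032). The part of these markers in the change of the 50 genes was not tested.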

How the data were processed

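RNA sequencing of 12 libraries was analysed, 3 in each of 4 groups named by the labels. The authors aligned polyA-selected reads with HISAT, assembled them with StringTie on an Ensembl annotation of GRCh38 and deposited raw counts per gene; how coverage became counts is not given in the sources used here. Rows naming no gene (0.00099% to 0.0053% of counts) were left out, and 0 columns of per-sample values were unused. Counts were tested with edgeR 4.0.16 (R 4.3.3) by its quasi-likelihood test, with TMM factors, filterByExpr (minimum count 10) and Benjamini-Hochberg adjustment over all genes tested. The effect of rapamycin was fitted in each line alone, and the difference of response and the difference between lines in 1 fit of 12 libraries. All 50 genes passed the filter in every fit. Called means an adjusted p under 0.05, and differentially expressed, a fold change over 1.5 as well. The standard error is the log2 fold change over the root of the F statistic, and the 95% interval is 1.96 standard errors on either side. TPM used exon lengths of GENCODE release 44 (GRCh38), matched by gene identifier where it was the same and otherwise by symbol, and promoters came from RefSeq (GRCh38.p14). Library totals of 28189501 to 32499337 counts set the precision. Alternatives were DESeq2 1.42.0, other scalings, filters and fits, summed rows of the same name, a block for the replicate number, and each library left out. The fits were tested on simulated data.

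The 50 genes, the other lists and the tests were chosen with earlier results of these data known. Values per library are given for MCM2 to MCM7, PCNA, genes differentially expressed in both lines, the gene of largest change in each role group, genes called in the difference of response and genes called against the direction of the median gene. Of each other list, up to 3 genes with the highest mean count were to be named. Other genes of those lists, and ORC1 among the 50, were chosen after their values were seen. ORC6, RPA1 and WDHD1 came from the rule of the largest change in a role group in either line, which itself uses the values. The values of 1 gene among the leukocyte markers are not reported here.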

Additional observations from a re-analysis of the deposited data

Results flagged for a closer look

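One of the 50 genes responded to rapamycin differently in the cell lines by the test of the difference in 1 edgeR fit of 12 libraries. This was MCM2, with a difference (SK-MEL-28-labelled minus A375) of -0.37 on the log2 scale (adjusted p = 0.0118). Of all genes tested, 5.62% passed, 2.97% with a negative difference, so 1 of 50 is below the share of all genes. With DESeq2, 6 of the 50 had a called negative difference, against 7.63% of all genes. Among the related genes outside the 50, 7 differed by the same test. These were 5 of 7 genes that copy chromatin, 1 of 12 other fork genes and 1 of 8 genes that supply deoxynucleotides. Of 10 other genes of licensing and firing 0 passed, and of 10 replication checkpoint genes 0. The difference was -0.62 for CHTF18 (adjusted p = 0.0113), -0.56 for the histone chaperone subunit CHAF1A (adjusted p = 0.0067) and -0.63 for ASF1B (adjusted p = 0.0093). It was -0.35 for DNMT1 (adjusted p = 0.0137), -0.42 for UHRF1 (adjusted p = 0.0067) and -0.90 for TK1 (adjusted p = 0.00448). ASF1A, which fell in A375, had a difference of 0.53 (adjusted p = 0.0298). No cause of these differences was tested, and the label and all else that differed between the cultures cannot be told apart.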

How the results depend on the processing

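Every alternative kept the direction of the median log2 fold change of the 50 genes in the rapamycin comparisons. In A375, 2 genes were lower with library totals in place of TMM, and 31 genes passed with no fold change threshold, as 14 did in the SK-MEL-28-labelled cells. There 9 genes were higher when every gene with 1 count or more was tested. In the difference of response, the genes with a negative difference numbered 6 with DESeq2, 2 with RLE size factors or with rows of the same name summed, and 3 with a filter of 10 counts in every library. Between the lines, 1 gene was lower with DESeq2, RLE size factors, library totals, either other filter, the replicate block or summed rows.

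With each library left out, the genes that were higher numbered 25 to 30 in A375 and 8 to 13 in the SK-MEL-28-labelled cells, the negative differences of response 1 to 2, and between the lines the higher genes 2 to 5, the lower genes 0 to 2 and those past a fold change of 1.5, 0 to 1. The sign turned for WDHD1 in A375 (-0.13 to 0.085), CDC7 (-0.15 to 0.059) and MCM8 (-0.022 to 0.11) in the SK-MEL-28-labelled cells, none of which was called. The cause of these changes was not tested.

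No sign of pairing by replicate number was seen, as deviations of libraries with the same number correlated at -0.032 to 0.016 across genes. This check cannot show that the libraries were unpaired. With the number as a block, 28 genes were higher and 1 lower in A375 and 13 higher in the SK-MEL-28-labelled cells, 12 and 4 were differentially expressed, and the medians were 0.39 and 0.21. The difference of response kept 1 call, with a median of -0.13, and between the lines 4 genes were higher. With library totals the median of all genes was -0.05 in A375, and that of the 50 genes 0.35.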
